A study of Rattus norvegicus with 23 samples.

Results

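Grin1, Grin2a and Grin2b, the genes of the NMDA receptor subunits GluN1, GluN2A and GluN2B, were followed through the dorsal striatum of 23 rats. The 3 genes were chosen by their Ensembl identifiers (ENSRNOG00000011726, ENSRNOG00000033942 and ENSRNOG00000008766), each used only because the files place it on the chromosome known for that gene. They are 3 of the 32552 genes counted, and all 3 were among the 16275 genes with enough counts to be tested. The rule used identifiers and positions, not measured values.

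All rats were adult wild type Long Evans animals, male by the study's methods, and each gave 1 library of dorsal striatal RNA. Saline control rats (CT, n = 6, spelled Ct in the labels) lever pressed for saline. The METH rats pressed for methamphetamine at 0.1 mg/kg per infusion. Self-administration lasted 22 days. METH infusions were then paired with footshocks for 8 days, at currents raised from 0.18 to 0.36 mA, and 15 days of abstinence followed. A second self-administration phase of 12 days came next, with 3 days of footshocks at 0.30 mA and another 15 days of abstinence. By the study's methods, drug seeking in the presence of the cues was tested at the start and end of each abstinence period. Tissue was taken the day after the last of these tests, not from undisturbed abstinence. Always shock-resistant rats (ASR, n = 6, labelled SR) kept pressing through both shock phases. Delayed shock-resistant rats (DSR, n = 5, labelled RSR) suppressed their intake in the first shock phase but not in the second. Always sensitive rats (AS, n = 6, labelled SS) suppressed their intake in both. CT rats received no footshocks, so drug and shock cannot be told apart in any comparison with CT. The 3 METH groups were formed from the behavior of rats on a common schedule, not by random assignment.

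NMDA receptors are glutamate-gated cation channels that admit calcium when glutamate is bound and the membrane is depolarized. GluN1 is the obligatory subunit and binds the co-agonist glycine or D-serine, whereas the GluN2 subunits bind glutamate and set the channel's kinetics, its block by magnesium and its intracellular partners. GluN2B-containing receptors close more slowly than GluN2A-containing ones, and both subunits are used by striatal projection neurons, where NMDA receptors take part in the plasticity of cortical inputs.

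In the Rnor6.0 genome used by the authors, Grin1 lies on the minus strand of chromosome 3 (2506896 to 2534663) and spans 27.8 kb, with 21 merged exon blocks. Grin2a lies on the plus strand of chromosome 10 (5930298 to 6119990), spans 189.7 kb and has 11 exons. Grin2b lies on the minus strand of chromosome 4 (169560387 to 169999873), spans 439.5 kb and has 14 exons. The 3 genes therefore differ widely in how much of their span is exon: 18.7% in Grin1, 2.25% in Grin2a and 1.20% in Grin2b. Only exon reads were counted, over summed exon lengths of 5192, 4259 and 5261 bases. In 2 other genes that share exon bases with Grin1 there were 865 counts, equal to 0.325% of the 266027 counts of Grin1, and in 1 gene overlapping Grin2b there were 6. How reads lying on 2 genes were counted is not stated, so these counts do not measure the reads in the shared bases. The library kit does not mark strand, so reads of a gene and of an overlapping antisense partner cannot be told apart.

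The libraries held 18967015 to 28137676 counts each, with a median of 23069812. Those of DSR rats held 24588332 to 28137676, more than any of CT rats (at most 23248971) or AS rats (at most 24019678). Those of ASR rats held 20946656 to 27767632. DSR rats thus differed from CT and AS rats in depth too, and its part in the comparisons was not tested. Genes of the mitochondrial genome took 11.6% to 19.6% of a library's counts. The highest share belonged to AS rat Grp7-R1, while the other AS rats lay between 11.9% and 13.3%. The chi-square between the counts of rats of one group was at least 5.24 per gene over 55 pairs, so no pair agreed within sampling noise.

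Grin1 was by far the most abundant of the 3 transcripts. Its mean level was 493.2 CPM (counts scaled to a common library total, with TMM factors for the library sizes), higher than that of 98.7% of the tested genes. Per kilobase of annotated exon, the mean level over all rats was 94.99 CPM for Grin1, 13.3 CPM for Grin2b and 2.48 CPM for Grin2a. In every rat the order per kilobase was Grin1, Grin2b, Grin2a. Grin2b therefore exceeded Grin2a at the level of mRNA in all 23 libraries, by 3.25-fold to 9.59-fold per kilobase. These comparisons between genes rest on the exons that the annotation gives to each gene.

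Grin1 counts ranged from 7825 to 15375 per library. In CT rats, Grin1 stood at a lowest level of 482 CPM, a median of 528 CPM and a highest level of 643 CPM (538 ± 60.3, mean ± SD, n = 6). In ASR rats the corresponding levels were 402, 475 and 544 CPM (476 ± 49.2, n = 6). The ASR rats thus covered the lower part of the CT range and 3 of them lay below every CT rat. DSR rats had Grin1 levels of 557, 599, 514, 413 and 550 CPM (527 ± 70.4, n = 5). AS rats had a lowest level of 376 CPM, a median of 451 CPM and a highest level of 482 CPM (438 ± 46.4, n = 6). The highest AS rat and the lowest CT rat thus stood at the same level within rounding, and 5 of the 6 AS rats lay below every CT rat.

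Grin2a was counted far less often, with 116 to 594 counts per library. In CT rats its lowest, median and highest levels were 6.91, 11.1 and 15.0 CPM (11.1 ± 3.62, n = 6). ASR rats had 7.90, 10.04 and 14.7 CPM (10.7 ± 2.95, n = 6). These ranges lay within those of the CT rats. DSR rats had levels of 10.6, 23.3, 13.998, 7.79 and 9.36 CPM (13.0 ± 6.17, n = 5), and the value of 23.3 CPM, in rat Grp7-R7, was the highest of all 23 rats. AS rats had 5.57, 7.67 and 10.5 CPM (7.88 ± 1.91, n = 6). All AS rats were below the median of the CT rats, and 4 of them were below every ASR rat and every DSR rat.

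Grin2b had 1198 to 2388 counts per library. In CT rats its lowest, median and highest levels were 67.1, 79.6 and 84.9 CPM (77.5 ± 7.60, n = 6). ASR rats had 53.1, 62.0 and 72.0 CPM (62.3 ± 6.92, n = 6), and 4 of the 6 lay below every CT rat. DSR rats had levels of 73.8, 93.5, 75.3, 58.8 and 75.8 CPM (75.4 ± 12.3, n = 5). AS rats were the most uniform group for this gene, at 60.0, 65.5 and 69.8 CPM (64.9 ± 3.88, n = 6), with a coefficient of variation of 5.98% against 16.3% in DSR rats. That difference in spread was not tested.

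**Figure D1:**
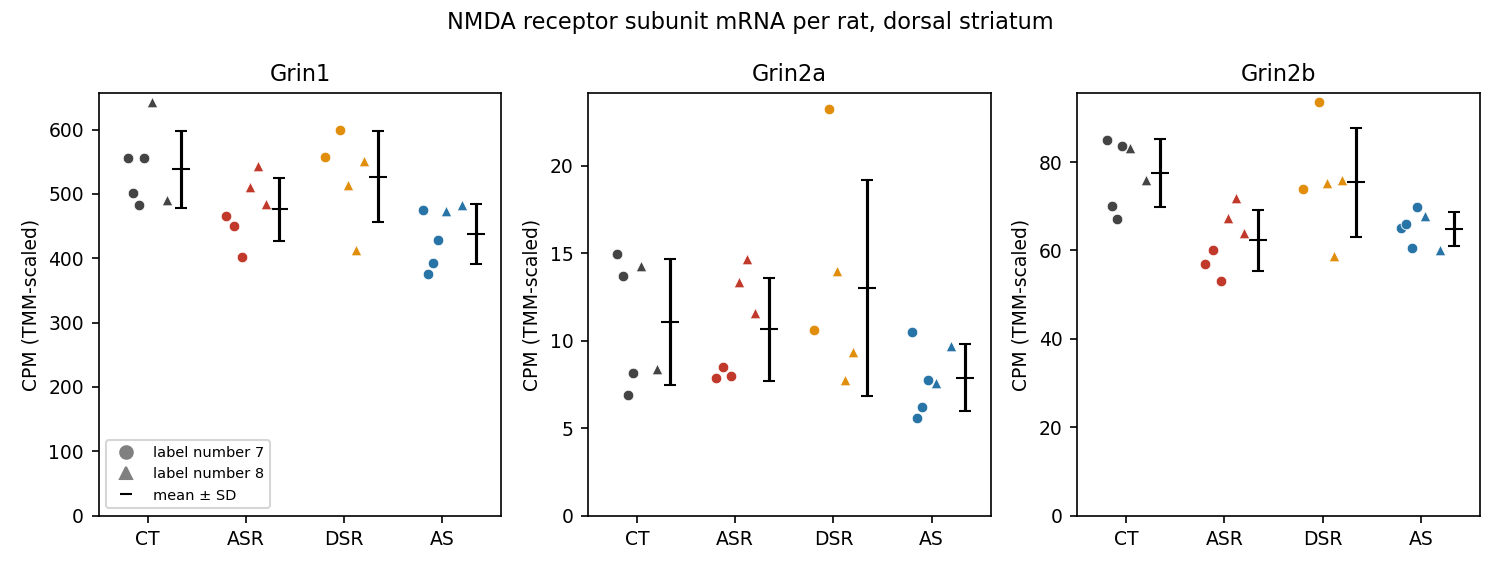
Level of each NMDA receptor subunit transcript in every rat (y axis, CPM on TMM-scaled library sizes, from 0), by group (x axis); circles are rats with the number 7 in their label, triangles rats with the number 8, and the bars show the group mean ± SD. AS rats had the lowest group means of Grin1 (438 CPM) and Grin2a (7.88 CPM), ASR rats that of Grin2b (62.3 CPM), and DSR rat Grp7-R7 had the highest Grin2a and Grin2b levels (23.3 and 93.5 CPM).

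Most of this spread was between rats rather than counting error. The standard deviation expected from counting alone was at most 1.13% of the level for Grin1, 2.89% for Grin2b and 9.28% for Grin2a. The biological coefficient of variation estimated by edgeR, the spread between rats of a group beyond counting, was 11.6% for Grin1, 10.9% for Grin2b and 30.0% for Grin2a. The median over all tested genes was 12.9%, and the trend for genes at the level of Grin2a stood at 17.9%. Grin2a therefore varied more between rats of a group than genes of its abundance usually did here.

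The order of the group means differed between the 3 genes. For Grin1 it was CT, DSR, ASR, AS from highest to lowest, and the highest mean was 1.23-fold the lowest. For Grin2a it was DSR, CT, ASR, AS, over a 1.65-fold range. For Grin2b it was CT, DSR, AS, ASR, over a 1.24-fold range. In a single edgeR quasi-likelihood test for any difference among the 4 groups, Grin2b had an unadjusted p of 0.00341, Grin1 of 0.0148 and Grin2a of 0.0797. Grin2b ranked 230th of 16275 genes. After Benjamini-Hochberg adjustment over all tested genes the values were 0.233, 0.259 and 0.364. Of all tested genes, 15.6% had an unadjusted p under 0.05 in this test and 0 had an adjusted p under 0.05.

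The comparison of AS with CT rats asks how the striatum of rats that reduced their METH intake under punishment differed from that of saline rats. All 3 transcripts had lower means in AS rats, and every AS rat was below the CT median for each gene. Grin1, the obligatory subunit, was at 0.814-fold of CT (log2 fold change -0.30, SE 0.09, 95% confidence interval -0.49 to -0.11). Grin2b was at 0.837-fold (log2 fold change -0.26, SE 0.09, interval -0.44 to -0.07). Grin2a was at 0.713-fold, with an interval that reached from -1.02 to 0.04 around a log2 fold change of -0.49 (SE 0.26). Grin1 and Grin2b, 2 of the 3 genes, had an unadjusted p under 0.05 (0.00371 and 0.00830), as had 21.4% of all tested genes. No gene of the 16275 had an adjusted p under 0.05 in edgeR, where the adjusted p was 0.0894 for Grin1, 0.114 for Grin2b and 0.270 for Grin2a. The median log2 fold change of the 3 genes was -0.30, against 0.02 over all tested genes and -0.07 over the 718 genes spanning 200 kb or more, Grin2b among them.

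Those values lay close enough to the threshold for the tool or 1 rat to decide the call. DESeq2 on all groups called 5.83% of genes at an adjusted p under 0.05 (894 of 15324), Grin1 among them (log2 fold change -0.31, adjusted p = 0.0353), but not Grin2b. DESeq2 on only these 2 groups called 6.13%, and called both Grin1 (adjusted p = 0.0248) and Grin2b (adjusted p = 0.0169). In edgeR without CT rat Grp7-R5, the CT rat with the lowest level of all 3 transcripts, the log2 fold change was -0.35 for Grin1 (adjusted p = 0.0361) and -0.32 for Grin2b (adjusted p = 0.0399), with 8.47% of all genes called. Without AS rat Grp7-L10, Grin1 was at -0.34 (adjusted p = 0.0385), with 7.99% of all genes called.

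Between ASR and CT rats the largest difference was in Grin2b. The Grin2b level of ASR rats was 0.803-fold that of CT rats (log2 fold change -0.32, SE 0.09, interval -0.50 to -0.13). All 6 ASR rats were below the CT median. Its unadjusted p of 0.00167 was the 21st smallest of 16275 genes, but its adjusted p was 0.949 in edgeR. Grin1 had a log2 fold change of -0.18 (SE 0.09, interval -0.37 to 0.01, adjusted p = 0.949). Grin2a had one of -0.06 (SE 0.25, interval -0.58 to 0.47, adjusted p = 0.984). Of the 3 genes, 1 had an unadjusted p under 0.05, against 4.92% of all tested genes, and 0 genes passed after adjustment in edgeR or in DESeq2 on all groups.

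DSR rats lay near CT rats for Grin1 and Grin2b. The log2 fold changes were -0.03 for Grin1 (SE 0.10, interval -0.23 to 0.17) and -0.04 for Grin2b (SE 0.09, interval -0.23 to 0.15), which leave room for differences of either sign. For Grin2a the value was 0.23 (SE 0.26, interval -0.31 to 0.78), and without DSR rat Grp7-R7 it became -0.09. The unadjusted p-values were 0.750, 0.681 and 0.382, and 4.63% of all tested genes were under 0.05. The adjusted p-values in edgeR were 0.986, 0.982 and 0.982, and 0 genes passed in edgeR or in DESeq2 on all groups.

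With the 3 METH groups weighted equally against CT, the log2 fold change was -0.17 for Grin1 (SE 0.08), -0.10 for Grin2a (SE 0.21) and -0.20 for Grin2b (SE 0.07). The Grin2a value depended on single CT rats, at -0.22 without Grp7-R5 and -0.00688 without Grp7-L7. Grin2b was again foremost, with the 298th smallest unadjusted p of all genes (0.00970). The adjusted p-values in edgeR were 0.540, 0.903 and 0.520. Grin1 and Grin2b had an unadjusted p under 0.05, as had 8.82% of all tested genes. After adjustment, edgeR called 0 genes and DESeq2 on all groups called 1 (0.00615%), which was none of the 3.

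DSR and AS rats had suppressed their intake alike in the first shock phase and differed in the second. Their comparison asks what went with late resistance to punishment, which cannot be told apart from the higher METH intake of DSR rats in that phase. All 3 transcripts had higher means in DSR rats, and this was the comparison with the largest difference for Grin2a. Grin2a was at 1.65-fold of AS (log2 fold change 0.72, SE 0.26, interval 0.17 to 1.27). Grin1 was at 1.20-fold (log2 fold change 0.27, SE 0.10, interval 0.07 to 0.47) and Grin2b at 1.16-fold (log2 fold change 0.22, SE 0.09, interval 0.03 to 0.41). All 5 DSR rats were above the AS median for Grin2a, and 4 of 5 were for Grin1 and Grin2b. The exception for Grin1 and Grin2b was DSR rat Grp8-L9, which had the lowest Grin1 and Grin2b levels of its group (413 and 58.8 CPM).

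All 3 genes had an unadjusted p under 0.05 in this comparison (0.0110 for Grin1, 0.0121 for Grin2a and 0.0278 for Grin2b), where 25.3% of all tested genes did. The adjusted p-values in edgeR were 0.120, 0.124 and 0.155, and 0 of 16275 genes passed. DESeq2 on all groups called 5.58% of genes (750 of 13433), none of the 3 among them. Without DSR rat Grp8-L9, edgeR called 11.9% of genes and all 3 subunits, with log2 fold changes of 0.35 for Grin1 (adjusted p = 0.0314), 0.86 for Grin2a (adjusted p = 0.0423) and 0.30 for Grin2b (adjusted p = 0.0358). Without DSR rat Grp7-R7, the Grin2a value was 0.41 and the Grin2b value 0.13. Gene span moved with this comparison: the median log2 fold change was -0.04 over the 5473 genes under 10 kb, -0.01 over the 6687 genes of 10 to 50 kb, where Grin1 belongs, 0.05 over the 3397 genes of 50 to 200 kb, where Grin2a belongs, and 0.14 over the 718 genes of 200 kb or more, where Grin2b belongs. The part of span in the values of these genes was not tested.

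Between ASR and AS rats the largest difference was in Grin2a. It was at 1.35-fold of AS in ASR rats (log2 fold change 0.43, SE 0.26, interval -0.10 to 0.96), and all 6 ASR rats were above the AS median. Grin1 had a log2 fold change of 0.12 (SE 0.09, interval -0.07 to 0.31). Grin2b had one of -0.06 (SE 0.09, interval -0.24 to 0.12), the only negative value of the 3. None of the 3 had an unadjusted p under 0.05, against 8.65% of all tested genes, and the adjusted p-values in edgeR were 0.690, 0.620 and 0.828 for Grin1, Grin2a and Grin2b. No gene passed after adjustment in edgeR or in DESeq2 on all groups.

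With ASR and DSR weighted equally as finally resistant rats, the log2 fold change against AS was 0.58 for Grin2a (SE 0.23), 0.19 for Grin1 (SE 0.08) and 0.08 for Grin2b (SE 0.08). Grin1 and Grin2a had an unadjusted p under 0.05 (0.0264 and 0.0190), as had 21.2% of all tested genes. The adjusted p-values in edgeR were 0.184 for Grin1, 0.169 for Grin2a and 0.563 for Grin2b. No gene passed the adjusted threshold in edgeR, while DESeq2 on all groups called 2.97% (446 of 15009), none of the 3 among them.

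Between the resistant groups, Grin2b had the smallest p of the 3 genes. ASR rats had 0.825-fold the DSR level (log2 fold change -0.28, SE 0.09, interval -0.47 to -0.09), and all 6 ASR rats were below the DSR median of 75.3 CPM. Grin1 had a log2 fold change of -0.15 (SE 0.10, interval -0.35 to 0.05) and Grin2a of -0.29 (SE 0.26, interval -0.83 to 0.25). Without DSR rat Grp7-R7 the values were -0.18 for Grin2b, -0.09 for Grin1 and 0.03 for Grin2a. The unadjusted p of Grin2b, 0.00651, was the 45th smallest of all genes, and 4.29% of genes were under 0.05. Its adjusted p was 0.846 in edgeR, where 0 genes passed, and DESeq2 on all groups called 1 gene (0.00615%), which was not among the 3. Genes of 200 kb or more had a median log2 fold change of -0.08 in this comparison and all tested genes one of -0.00449, and the part of span in the Grin2b value was not tested.

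**Figure D2:**
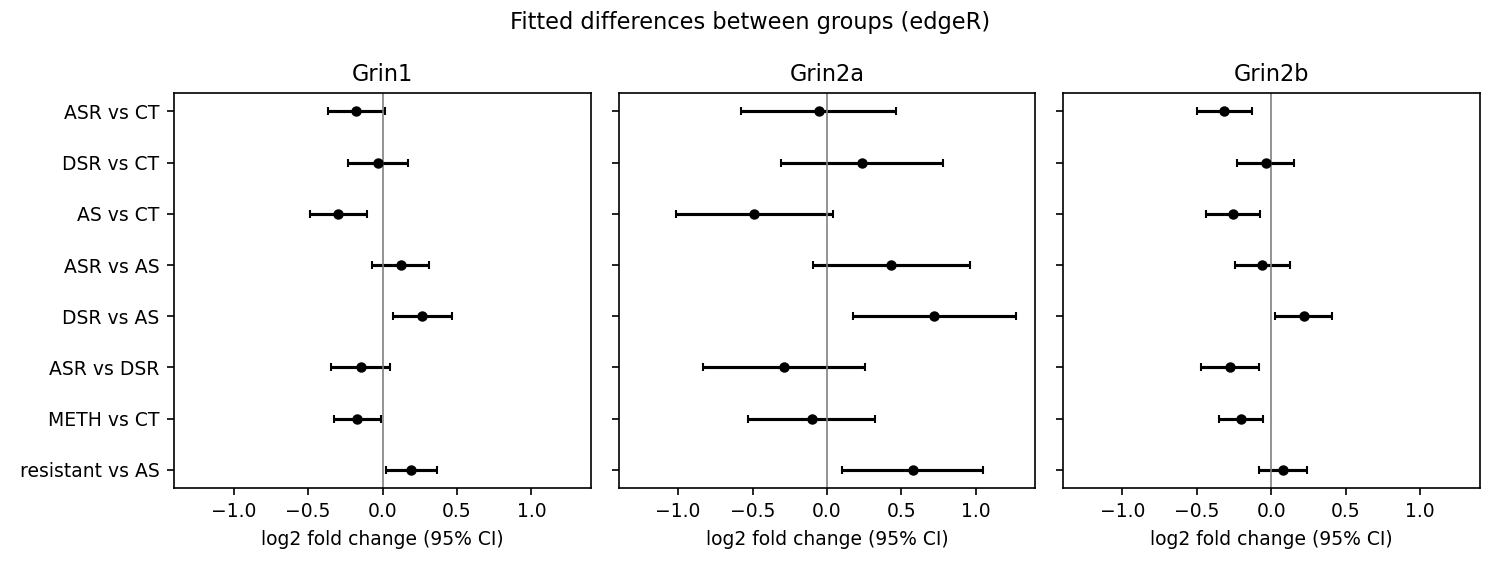
Log2 fold change of each subunit transcript (x axis, zero line in grey) in 8 comparisons (y axis, first group against second), with points for the edgeR estimate and bars for its 95% confidence interval. The Grin2a intervals are the widest (-1.02 to 0.04 in AS vs CT), and the Grin2b estimates are negative in ASR vs CT (-0.32), AS vs CT (-0.26) and ASR vs DSR (-0.28).

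The comparisons share groups and so are not independent of one another. Set side by side, the Grin2b values were -0.32 in ASR vs CT and -0.26 in AS vs CT, with 0.22 in DSR vs AS, and -0.28 between ASR and DSR rats. The group means of Grin2b were thus 62.3 and 64.9 CPM in ASR and AS rats and 75.4 and 77.5 CPM in DSR and CT rats. For Grin2a the means of ASR, CT and DSR rats were 10.7, 11.1 and 13.0 CPM, and that of AS rats was 7.88 CPM. The ranges of 2 groups overlapped for every gene in all 6 pairs of groups. Among all tested genes, 0.823% did not overlap between AS and CT, 2.48% between DSR and AS, 0.356% between ASR and CT, 0.356% between ASR and AS, 0.387% between DSR and CT and 0.313% between ASR and DSR. RNA came from bulk tissue, in which fewer cells of a type and less RNA per cell cannot be told apart.

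**Figure D3:**
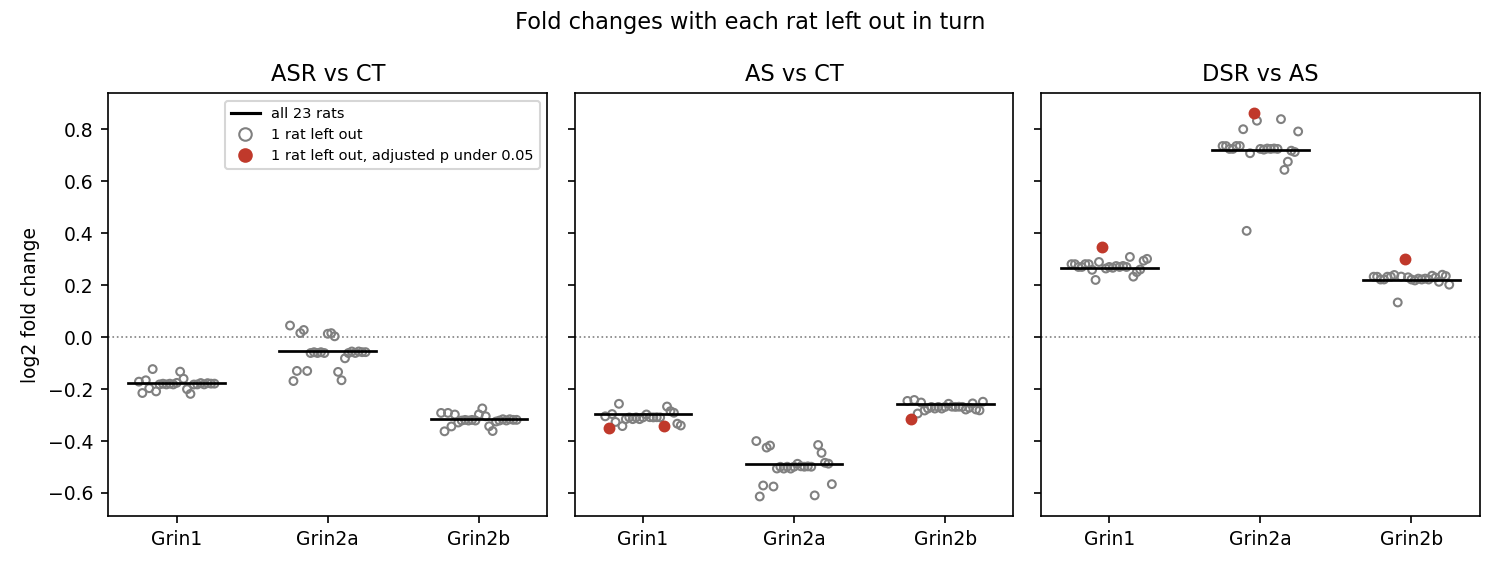
Log2 fold change (y axis) of each subunit transcript (x axis) in ASR vs CT, AS vs CT and DSR vs AS after leaving out each of the 23 rats in turn; black lines are the values with all rats, open circles those with 1 rat left out, and filled red circles those with an adjusted p under 0.05. The red circles are 2 for Grin1 and 1 for Grin2b in AS vs CT, and 1 for each gene in DSR vs AS, where leaving out DSR rat Grp7-R7 gave the lowest Grin2a value (0.41).

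The balance between subunits was read from ratios within a library, which do not depend on how libraries are scaled. Of the summed level of the 3 transcripts per kilobase, Grin1 made up 83.2% to 87.6%, Grin2b 10.6% to 14.5% and Grin2a 1.51% to 3.94% in single rats. ASR rats had the lowest mean Grin2b level relative to Grin1. Their Grin2b to Grin1 ratio was 0.129 ± 0.004 (n = 6), against 0.143 ± 0.010 in CT (n = 6), 0.141 ± 0.009 in DSR (n = 5) and 0.148 ± 0.018 in AS rats (n = 6).

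The lowest, median and highest Grin2b to Grin1 ratios of the ASR rats were 0.121, 0.131 and 0.132. On the log2 scale 5 of the 6 lay between -2.94 and -2.93, and rat Grp7-L4 stood below them at -3.05. The mean log2 ratio of ASR rats differed by -0.13 from DSR rats (p = 0.00433), by -0.14 from CT rats (p = 0.0130) and by -0.18 from AS rats (p = 0.0346), in two-sided exact permutation tests. With Benjamini-Hochberg adjustment over the 18 tests of 3 ratios in 6 pairs of groups, these values became 0.0779, 0.117 and 0.156. The smallest p that these tests allow is 0.00216. Without CT rat Grp8-L11 the adjusted p in the exact permutation test was 0.0390 against CT, at a difference of -0.17. Without AS rat Grp8-R10 it was 0.0390 against AS, at a difference of -0.24. In both cases the adjusted p against DSR also became 0.0390, through the adjustment alone, since that comparison holds neither rat and its difference and p did not move.

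Grin2b to Grin2a, the ratio of the slower to the faster regulatory subunit, was highest in AS rats. It had a lowest value of 5.02, a median of 7.26 and a highest value of 9.59 in AS rats, and 3.97, 4.93 and 5.84 in ASR rats. In DSR rats the values spanned 3.25 to 6.56, and in CT rats 4.14 to 8.31. The ASR and AS ranges overlapped, and their mean log2 ratios differed by -0.49 (exact permutation test, two-sided, p = 0.0260, adjusted p = 0.156). DSR differed from AS by -0.44 (exact permutation test, two-sided, p = 0.0974, adjusted p = 0.289), and by -0.28 without DSR rat Grp7-R7. The Grin2a to Grin1 ratio of ASR rats exceeded that of AS rats by 0.31 on the log2 scale (exact permutation test, two-sided, p = 0.0606, adjusted p = 0.218). The other 12 of the 18 ratio differences lay between -0.29 and 0.38, with adjusted p-values of 0.289 or more.

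**Figure D4:**
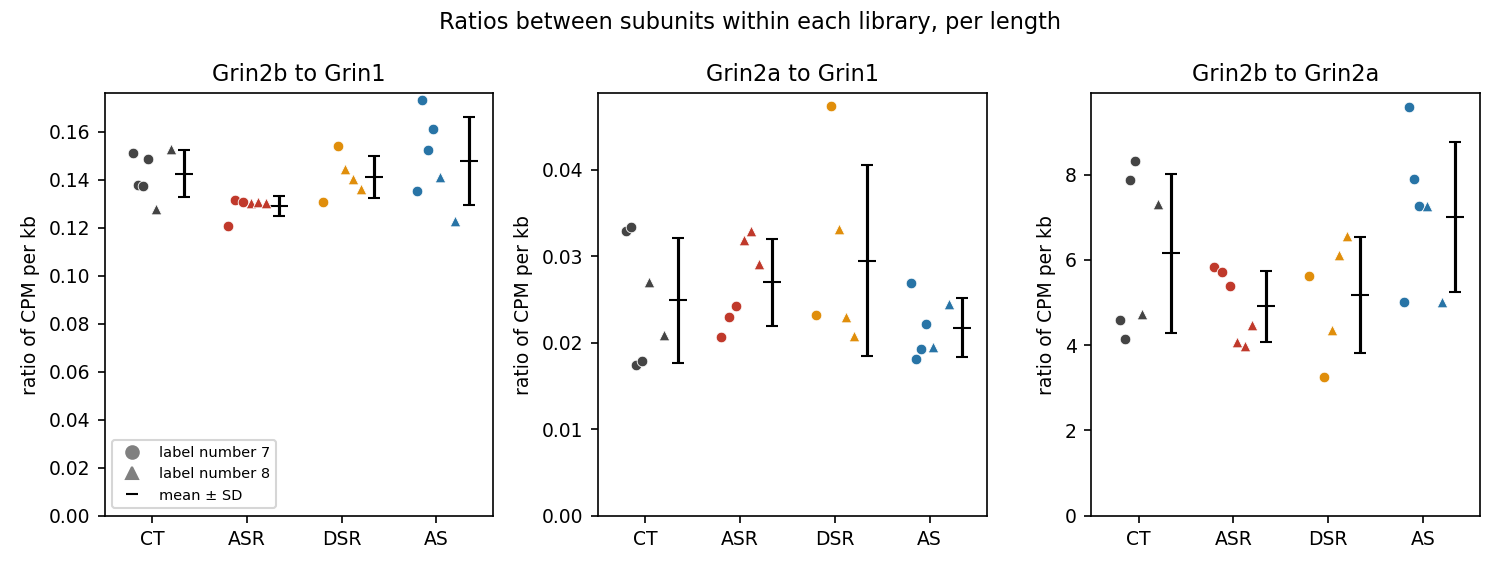
Ratio of 2 subunit transcripts within each library (y axis, ratio of CPM per kilobase of exon, from 0) by group (x axis), with circles and triangles for rats with the numbers 7 and 8 in their label and bars for the mean ± SD. The Grin2b to Grin1 ratios of ASR rats sit between 0.121 and 0.132, and the Grin2b to Grin2a ratios of AS rats reach 9.59.

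With all groups pooled, the subunits varied together between rats of the same group. After the group mean was subtracted from each log2 CPM value, Pearson's r over the 23 rats was 0.752 for Grin1 with Grin2b (Spearman's rho 0.663), 0.733 for Grin1 with Grin2a (rho 0.724) and 0.673 for Grin2a with Grin2b (rho 0.600). Permuting rats within groups 100000 times gave p-values of 0.00034, 0.00053 and 0.00410 for r, or 0.000795, 0.000795 and 0.00410 after adjustment over the 3 pairs. The adjusted p-values for rho were 0.001965, 0.00078 and 0.00821 in the same order. Without the 2 rats farthest from the median, r was 0.612, 0.686 and 0.499 in that order, with adjusted permutation p-values of 0.00537, 0.00228 and 0.0493. In rats with the label number 7 (n = 13) r was 0.732, 0.696 and 0.649, with permutation p-values of 0.0148, 0.02805 and 0.101. In those with the number 8 (n = 10) r was 0.808, 0.815 and 0.716, with permutation p-values of 0.0202, 0.0752 and 0.0966. The group means subtracted here were those of both label numbers together. Differences between the numbers within a group therefore remain in these values, which cannot show whether the subunits varied together within a label number.

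The pooled values did not describe every group. In the groups of 6 rats taken singly, examined after the values had been seen, Grin2b of AS rats had an r of -0.01 with Grin1 (rho -0.37) and of -0.10 with Grin2a (rho -0.20). The exact permutation p-values were 0.979 and 0.831 for r and 0.497 and 0.714 for rho, and the adjusted p-values over the 9 pairs of genes and groups were 0.979 and 0.934 for r and 0.559 and 0.714 for rho. Without the 2 rats farthest from the median, r was -0.74 and -0.07. Grin1 with Grin2a had an r of 0.901 in AS rats (rho 0.886), with adjusted exact permutation p-values of 0.0469 and 0.100, and an r of 0.556 without the 2 farthest rats. In ASR rats the 3 values of r lay between 0.879 and 0.958, with a highest adjusted exact permutation p of 0.0417. Their rho lay between 0.829 and 0.943, with adjusted exact permutation p-values of 0.075 to 0.131. The levels of ASR rats with the label numbers 7 and 8 overlapped for none of the 3 genes. The ASR values therefore include the difference between the numbers and cannot show co-variation within a number. In CT rats r lay between 0.427 and 0.781, with a highest adjusted exact permutation p of 0.471. Without the 2 farthest rats, r lay between 0.841 and 0.916 in ASR rats and between -0.268 and 0.868 in CT rats. DSR rats (n = 5) had an r of 0.697 to 0.929, without a test. Whether r differed between the groups was not tested.

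AS rat Grp8-R10 had the highest Grin1 level of its group (482 CPM) and the lowest Grin2b level (60.0 CPM). AS rat Grp7-R1 had the lowest Grin1 (376 CPM) and Grin2a (5.57 CPM) levels of all 23 rats, with a Grin2b level of 65.9 CPM near the median of its group. This is also the library with the mitochondrial share of 19.6%, and the part of that share in its values was not tested. With the mitochondrial share regressed out over all rats, r was 0.802 for Grin1 with Grin2b, 0.713 for Grin1 with Grin2a and 0.735 for Grin2a with Grin2b.

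**Figure D5:**
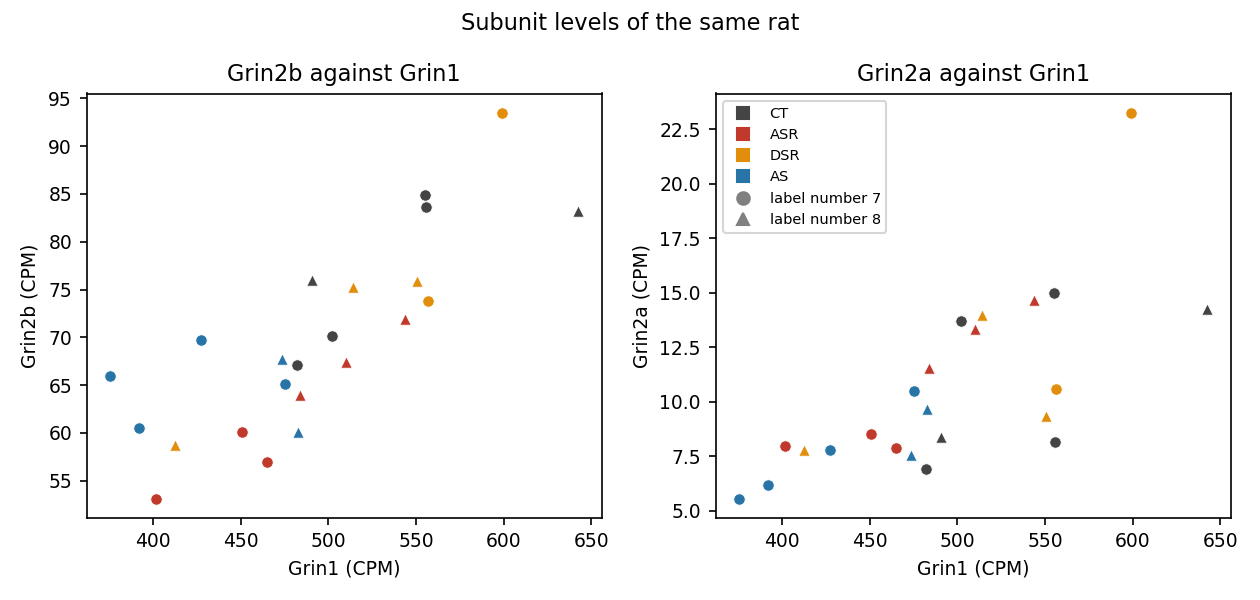
Grin2b level (left, y axis) and Grin2a level (right, y axis) against the Grin1 level of the same rat (x axes), all in CPM on axes that do not start at 0; colors mark the 4 groups, and circles and triangles the label numbers 7 and 8. The cloud rises from ASR rat Grp7-R4 (402 CPM of Grin1 and 53.1 CPM of Grin2b) to CT rat Grp8-L11 (643 and 83.2 CPM), while AS rat Grp8-R10 combines 482 CPM of Grin1 with 60.0 CPM of Grin2b.

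Such co-variation was not particular to the subunits. Among 14363 genes with a mean of at least 1 CPM, 203 genes had a group-centred r of 0.8 or more with Grin1, 172 with Grin2a and 24 with Grin2b. A negative r of at least that size was found in 289 genes with Grin1, 62 with Grin2a and 17 with Grin2b. For Grin1, Grin2b was the 417th most similar gene and Grin2a the 503rd. For Grin2b, Grin1 ranked 75th and Grin2a 287th. The lists of genes above 0.8 for Grin1 and for Grin2a shared 33 genes, 16.3% of the first and 19.2% of the second. The genes most like each subunit over the 23 rats were ENSRNOG00000011282 for Grin1 (chromosome 1, 60717386 to 60736609, r = 0.935), ENSRNOG00000005309 for Grin2a (chromosome 7, 142575672 to 142684114, r = 0.964) and ENSRNOG00000052707 for Grin2b (chromosome 19, 25526751 to 25749550, r = 0.885). These values share libraries and scaling, and the files do not pair the identifiers with symbols.

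Within the ASR group, the 3 rats with the label number 8 had more of every subunit transcript than the 3 with the number 7. Grin2a was at 7.90 to 8.51 CPM in the ASR rats numbered 7 and at 11.6 to 14.7 CPM in those numbered 8. Grin1 was at 402 to 465 against 484 to 544 CPM, and Grin2b at 53.1 to 60.1 against 64.0 to 72.0 CPM. The ranges of the ASR rats numbered 7 and 8 overlapped for none of the 3 genes, as was true of 11.7% of all tested genes. The labels do not say what the number stands for, and this split was examined after the levels had been seen. In an edgeR fit with each group divided by the number, the log2 difference of 8 from 7 within ASR was 0.22 for Grin1, 0.70 for Grin2a and 0.26 for Grin2b, with unadjusted p-values of 0.0671, 0.0447 and 0.0341 where 4.46% of all genes were under 0.05.

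In DSR rats the difference between the label numbers had the opposite sign. The rats numbered 8 (n = 3) were below those numbered 7 (n = 2) by log2 differences of -0.23 for Grin1, -0.70 for Grin2a and -0.26 for Grin2b, and the ranges did not overlap for Grin1, as was true of 19.9% of all tested genes. A test of whether the difference varied among the 4 groups gave unadjusted p-values of 0.0669, 0.0618 and 0.0449, each with an adjusted p of 0.897 in edgeR, where 4.27% of all genes were under 0.05.

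The same split was applied to the comparisons between groups. The numbers 7 and 8 held 4 and 2 CT rats, 3 and 3 ASR rats, 2 and 3 DSR rats, and 4 and 2 AS rats. The 2 DSR rats numbered 7 include Grp7-R7, which had the highest Grin2a level of all rats. In DSR vs AS, where all rats gave log2 fold changes of 0.27 for Grin1, 0.72 for Grin2a and 0.22 for Grin2b, the rats numbered 7 gave 0.47, 1.17 and 0.36 and those numbered 8 gave 0.05, 0.28 and 0.14. The signs were thus the same, at sizes that differed several-fold. The SEs among rats numbered 8 were 0.15 for Grin1, 0.29 for Grin2a and 0.12 for Grin2b, which leave room for differences of either sign. In AS vs CT the rats numbered 7 gave -0.33, -0.54 and -0.23, and those numbered 8 gave -0.25, -0.41 and -0.33. In ASR vs CT the Grin2b values were -0.43 and -0.23, while the Grin2a values had opposite signs, at -0.42 and 0.22. In ASR vs DSR the rats numbered 7 gave -0.40, -1.06 and -0.56 and those numbered 8 gave 0.06, 0.34 and -0.05, so that the Grin2b value was near 0 in the latter. In ASR vs AS the Grin2a values were 0.11 and 0.63. None of these values had an adjusted p under 0.05 in edgeR. The lowest adjusted p within either number was 0.0631, for Grin1 in DSR vs AS among rats numbered 7.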

How the data were processed

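RNA from the dorsal striatum of 23 rats was analysed from the gene counts that the authors deposited, 1 table per rat. Per the labels and the study's methods, the authors enriched mRNA with oligo(dT), made libraries with a kit that does not mark strand, trimmed the reads (Trimmomatic 0.36), aligned them against Rnor6.0 (STAR 2.5.2b) and tallied unique alignments over exons (featureCounts of Subread 1.5.2). The deposited values are raw counts, not normalized. The strand setting of the counting and the annotation release are not given in the sources used here. Reads from introns did not enter these counts.

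Groups came from the treatment labels and the study's group definitions. Rat codes came from the sample labels, and each code was treated as a separate rat. TMM factors (0.930 to 1.05), CPM and p-values were computed with edgeR 4.0.16 in R 4.3.3. The filter on low counts was filterByExpr (minimum count 10, minimum total 15), which left 16275. All 4 groups entered 1 quasi-likelihood fit with 19 residual degrees of freedom, and 8 contrasts were adjusted with Benjamini-Hochberg over all tested genes. A change was called at an adjusted p under 0.05. The study itself used DESeq2. Log2 CPM values had a prior count of 2. Levels per kilobase used the exon length in the tables. Ratios were compared with exact permutation tests in Python 3.11.15 with scipy 1.17.1, and correlations with 100000 permutations within groups. The scripts were tested on simulated data. With changes planted in DSR rats, edgeR recovered 85 of 100 changes of 1.5-fold and 93 of 100 of 2-fold in DSR vs AS. It made 8 false calls at an adjusted p under 0.05. DESeq2 recovered 91 and 96, with 28 false calls. A recovered change had to have the planted sign in edgeR but not in DESeq2, so the 2 tools were not scored alike. Each gene was simulated independently, and changes were planted only in genes above a minimum level. Variation shared between genes of a library was absent, so these shares do not give the recovery in the real data.

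Alternatives were RLE factors, no filter on low counts, DESeq2 1.42.0 and edgeR on all or on only the compared groups, the label number as a covariate or split, the mitochondrial share left out or as a covariate, and each rat left out. The ratios were also recomputed with a small constant added to each count. The fit divided by group and label number was chosen after the data were seen. Members and lists were chosen with earlier results of these data known.

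The rule for named genes took the 3 members, the gene most like each, and glutamate receptor, synaptic and cell type marker lists wherever a table paired identifiers with symbols. The reference table of 47357 rows held 0 with an Ensembl identifier, so those lists were not analysed here and the tissue was not checked against markers. Precision was limited by the number of rats and the spread between them. Counting error was largest for Grin2a, at 116 to 594 counts per library. At 9.28% or less, it stayed below the 30.0% spread of Grin2a between rats of a group.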

Additional observations from a re-analysis of the deposited data

Results flagged for a closer look

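The log2 Grin2b to Grin1 ratio of ASR rat Grp7-L4 was -3.05, far from the other 5 ASR rats, which lay between -2.94 and -2.93. The gap was 0.894 of the whole range of the group, above Dixon's 95% critical value of 0.625 for 6 samples.

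Genes of the mitochondrial genome took 19.6% of the counts of AS rat Grp7-R1, while the remaining AS rats had 11.9% to 13.3%. This gap was 0.821 of the range. The test was applied to 28 sets of values and 2 were far from their group, where chance alone would give about 1.4, or 1 in 20.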

How the results depend on the processing

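Apart from omitting single rats, 228 fold changes of the 3 genes were recomputed, including with only the rats of 1 label number, of which 217 kept their direction and their side of the threshold, and of 552 with 1 rat left out, 535 did. The 552 include omissions of rats outside the compared groups, which leave the compared rats unchanged. DESeq2 called 3 results that edgeR did not: Grin1 in AS vs CT on all groups (-0.31) and on the 2 groups (-0.31), and Grin2b in AS vs CT on the 2 groups (-0.27). Over all genes at an adjusted p under 0.05, edgeR on all 23 rats called 0 in every comparison and on only the 2 groups called 1 comparing ASR with CT. Without AS rat Grp7-L10 it called 1299 comparing AS with CT, 904 comparing DSR with AS and 813 comparing resistant with AS rats. It called 1377 for AS against CT without CT rat Grp7-R5, 8 for the same without AS rat Grp8-L5, and 1954 for DSR against AS without DSR rat Grp8-L9. DESeq2 on all groups called 894 comparing AS with CT, 750 comparing DSR with AS, 446 comparing resistant with AS rats, 1 comparing ASR with DSR, 1 comparing METH with CT and 0 otherwise. On only the 2 groups it called 936 comparing AS with CT, 1811 comparing DSR with AS, 21 comparing ASR with AS, 15 comparing ASR with CT, 1 comparing DSR with CT and 0 comparing ASR with DSR. With only rats numbered 7, the sign turned in DSR vs CT for Grin1 (0.14) and Grin2b (0.13). With only rats numbered 8, it turned for Grin2a in ASR vs CT (0.22), DSR vs CT (-0.125) and ASR vs DSR (0.345), for Grin2b in ASR vs AS (0.0965) and for Grin1 in ASR vs DSR (0.0580). With the mitochondrial share as a covariate, Grin2a in ASR vs CT turned to 0.0331.

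Leaving out each rat in turn, the fold changes that crossed zero lay between -0.0894 and 0.0390 (Grin1, DSR vs CT), -0.136 and 0.0328 (Grin2b, DSR vs CT), -0.169 and 0.0445 (Grin2a, ASR vs CT), -0.0904 and 0.365 (Grin2a, DSR vs CT) and -0.423 and 0.0321 (Grin2a, ASR vs DSR). Those with calls in 1 or 2 omissions lay between -0.35 and -0.26 (Grin1, AS vs CT), -0.32 and -0.24 (Grin2b, AS vs CT), 0.22 and 0.35 (Grin1, DSR vs AS), 0.41 and 0.86 (Grin2a, DSR vs AS) and 0.13 and 0.30 (Grin2b, DSR vs AS). No cause of these shifts was tested.

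Of 54 log2 ratio differences under other alternatives, 48 kept their direction. Rats numbered 7 turned Grin2b to Grin2a in ASR vs DSR (0.40) and Grin2a to Grin1 in ASR vs CT (-0.10). Rats numbered 8 turned Grin2a to Grin1 in ASR vs DSR (0.32) and Grin2b to Grin1 in DSR vs CT (0.00589), AS vs CT (-0.0855) and DSR vs AS (0.0914). With a rat left out, 402 of 414 kept direction and call, and those that did not lay between -0.0452 and 0.0134 (Grin2b to Grin1, DSR vs CT), -0.00381 and 0.10 (the same, AS vs CT), -0.19 and 0.11 (Grin2a to Grin1, ASR vs DSR), -0.207 and 0.0464 (Grin2b to Grin2a, ASR vs DSR), and for Grin2b to Grin1 without a change of sign -0.17 and -0.12 (ASR vs CT), -0.154 and -0.0954 (ASR vs DSR) and -0.24 and -0.14 (ASR vs AS). The 414 include omissions of rats in neither compared group, which leave the difference and its unadjusted p unchanged by construction. The pooled correlations kept sign and call without centring, without the 2 farthest rats and with the mitochondrial share regressed out. By label number, differences between the numbers within a group were left in. The permutation p was over 0.05 for Grin2a with Grin2b in both numbers. It was also over 0.05 for Grin1 with Grin2a in rats numbered 8. No paired analysis was possible because no rat code is shared between groups. Counting error was largest for Grin2a, but below its spread between rats.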
